A study of Naumovozyma castellii with 14 samples.

Results

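In the budding yeast Naumovozyma castellii, 318 stretches of the genome carry a cryptic unstable transcript (CUT) and an Xrn1-sensitive unstable transcript (XUT) that were annotated separately and that overlap on the same strand. A locus was taken as each group of annotated CUTs and XUTs joined by an overlap of at least 1 nt on one chromosome and strand. The 318 loci held 680 annotated transcripts, 356 of the 1279 CUTs and 324 of the 965 XUTs, among 8343 distinct annotated features. The choice used positions only and no expression value.

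The study compared total RNA from 14 strand-specific, rRNA-depleted libraries in 5 groups, and its title names the targets of nonsense-mediated decay (NMD). All strains were MATalpha ura3-1 ho haploids grown to an OD600 of 0.5 at 25 °C in rich YPD medium. WT (strain YAM2478, n = 4) carried no further allele, upf1 (strain YAM2890, n = 4) carried upf1::kanMX6, and dcr1_upf1 (strain YAM2943, n = 2) carried dcr1 and upf1::kanMX6. WT_CHX and upf1_CHX (n = 2 each) were the first and second strains exposed to cycloheximide (CHX), an inhibitor of translation elongation, at 100 µg per mL for 15 min. Each genotype is a single strain, and the labels do not say whether numbered libraries came from separate cultures, so p-values measure the spread between these libraries, which may be technical.

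CUTs are noncoding RNAs that the nuclear exosome removes soon after they are made, and XUTs are noncoding RNAs that the cytoplasmic 5′ to 3′ exonuclease Xrn1 degrades after decapping. NMD is a cytoplasmic, translation-dependent route to such decay: Upf1, encoded by the gene annotated as NAM7, acts on RNAs whose translation ends early, and an elongation inhibitor blocks it. Naumovozyma castellii also keeps an RNA interference pathway in which Dcr1 cuts double-stranded RNA, which can form where transcripts of opposite strands meet. No exosome or Xrn1 mutant is among the groups, so the sensitivities that named the annotations were not tested.

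The libraries held 7895089 to 22437334 reads, and the median overlapping XUT held between 10 reads in WT library 3 and 108 reads in upf1_CHX library 2. Values are normalised read densities (reads per nucleotide after the authors' library scaling), and fold changes are differences of log2(density + 0.02), which understate changes of low transcripts. The deposited scaling holds the snoRNAs near 0 (median −0.01 for upf1 vs WT and −0.04 for WT_CHX vs WT), while the median mRNA was 0.20 higher in upf1 than in WT and 1.35 higher in WT_CHX than in WT on the log2 scale. NAM7 had 0 reads in all upf1, upf1_CHX and dcr1_upf1 libraries and a density of 0.522 ± 0.071 in WT (SD, n = 4), and no feature was named DCR1. The alpha-specific STE3 and SAG1 stood at 1.14 and 2.08 in WT, and HMLALPHA1 at 0.186. The a-specific STE6, STE2, BAR1 and AGA2 stood at 0.149, 0.0496, 0.0328 and 0.0233, and AGA1 at 0.00737. HMLALPHA1 and STE6 thus lay close together. STE2, STE6, BAR1, STE3 and HMLALPHA1 were called higher in upf1 than in WT (log2 changes 1.74, 0.92, 1.07, 0.39 and 0.85), while SAG1, AGA1 and AGA2 were not called. In WT_CHX AGA1 stood at 0.167 and AGA2 at 4.51. Untreated replicates 1 and 2 deviated together against replicates 3 and 4, and the CHX and dcr1_upf1 groups hold replicates 1 and 2 only, so values from those replicates alone stand beside results that they change.

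Most loci were simple pairs: 279 held 1 CUT and 1 XUT, and 31 held 2 CUTs under 1 XUT. In 194 of the 362 overlapping pairs the CUT lay wholly within the XUT, and in 24 the XUT lay within the CUT. The XUT was the longer partner in 281 pairs. In 186 pairs the 5′ ends lay within 50 nt of each other, while the 3′ ends did so in 111 pairs. Across pairs the XUT start lay at a median of −31.5 nt from the CUT start (negative is upstream), and the XUT end at a median of 43 nt from the CUT end. The overlap had a median of 449.5 nt, with a range of 15 to 3416 nt. Overlapping CUTs had a median length of 521.5 nt, against 378 nt for the 923 CUTs without an XUT, and overlapping XUTs 811.5 nt, against 516 nt for the 641 XUTs without a CUT. A long transcript has more chance of meeting another by the rule itself, so these lengths are a description.

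**Figure D1:**
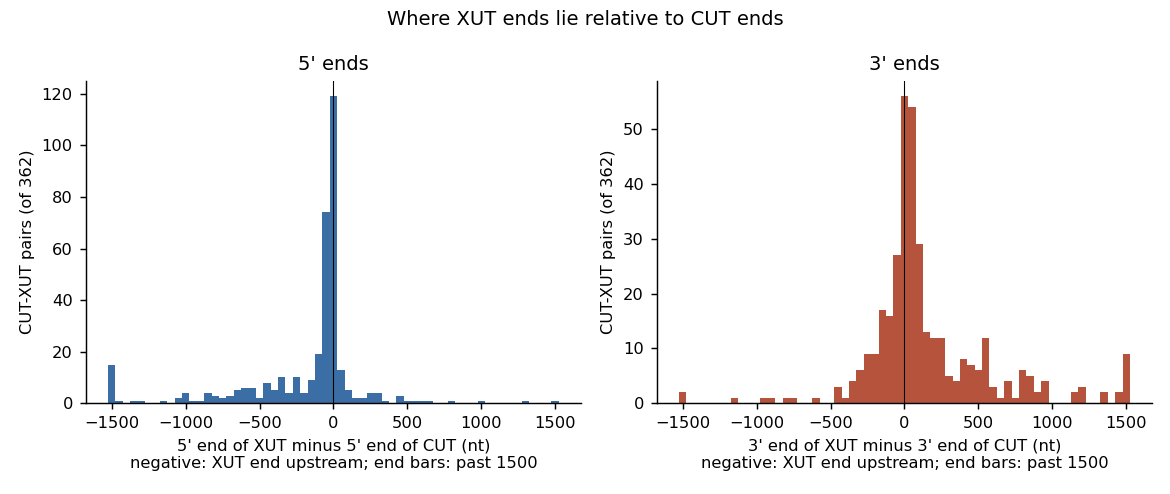
Distance in nucleotides from the 5′ end (left) and the 3′ end (right) of each CUT to the same end of its overlapping XUT, counted over 362 pairs; negative values mean that the XUT end lies upstream. The 5′ ends pile up just upstream of the CUT start (186 pairs within 50 nt), and the 3′ ends are spread more widely (111 pairs within 50 nt).

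None of the loci overlapped an mRNA on their own strand, and 213 of 318 (67.0%) overlapped at least 1 mRNA on the opposite strand. An opposite mRNA was covered from end to end at 58 loci. By the nearest mRNA upstream of the start, 159 loci began beside a divergent mRNA (median distance 300 nt), 119 began inside an opposite mRNA, and 38 followed an mRNA on the same strand. A stable unannotated transcript (SUT) shared the strand at 2 loci. Another CUT, XUT or SUT lay on the opposite strand at 53 loci. The share of opposite mRNA overlap was 64.2% for overlapping XUTs against 62.6% for XUTs without a CUT, and 61.0% for overlapping CUTs against 70.5% for CUTs without an XUT.

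The CUT and XUT of a pair mostly count the same reads, so their values are not independent. Among the 279 loci with 1 of each, the CUT was the denser in 198 in WT and in 195 in upf1, and the XUT-to-CUT ratio of density had a median of 0.889 in WT and 0.908 in upf1_CHX. For 72 nested pairs with at least 200 nt of XUT outside the CUT, the density outside could be separated. Its median in WT was 0.00548, against 0.0240 inside the CUT, and the CUT was the denser in 67 of 72. In upf1 both medians were higher, 0.0261 outside and 0.0948 inside, and the CUT was the denser in 66 of 72. Reads outside are those of the XUT minus those of the CUT. A read that crosses the CUT edge and was counted in the CUT is thus taken off the outside part. By this measure the longer XUT annotation spans a dense core and a thinner flank at most of these pairs, in WT and in upf1. The size of the edge effect was not tested.

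Loss of UPF1 raised most of the overlapping transcripts. Of the 680, 631 reached a mean density of at least 0.02 over all libraries and were tested (301 XUTs and 330 CUTs, at 301 loci), and 322 of these had a WT mean under 0.02. In upf1 against WT, 501 of 631 were higher and 2 were lower (limma with Benjamini-Hochberg adjustment over 7518 tested features, adjusted p under 0.05), against 40.5% higher and 0.585% lower among all tested features. Transcripts with a low WT level pass the density filter through the groups where they are higher, so the count was also split by WT level: 236 of the 309 with a WT mean of at least 0.02 were higher and 2 lower, and 265 of the 322 below it were higher. The median log2 change was 0.90 for the overlapping transcripts and 0.25 for all features. With libraries scaled by mRNA ratios instead, which moves the all-feature median to −0.04, 428 of 614 tested passed upwards and 8 downwards (median 0.82), against 29.5% and 24.3% of all features. The 4 upf1 libraries lay above the 4 WT libraries without overlap for 457 of 631, against 36.7% of all features, and below them for 0, against 0.333%. Every tested transcript was higher at 226 of 301 loci. The summed share of reads in overlapping XUTs ran from 0.139% to 0.152% in WT and from 0.320% to 0.346% in upf1, with no overlap between groups. In bulk RNA, more cells with a transcript and more of it per cell cannot be told apart.

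Overlapping CUTs were called about as often as XUTs, and more often than CUTs without an XUT, by count. The CUT and XUT of a pair mostly count the same reads, so the likeness to overlapping XUTs is not a separate result. Of the overlapping CUTs tested, 263 of 330 were higher in upf1 (median 0.90), close to 238 of 301 overlapping XUTs (median 0.89) and 356 of 467 XUTs without a CUT (median 0.82). Of the CUTs without an XUT, 175 of 522 were higher (33.5%, median 0.32). The classes were compared by count only, and the difference between them was not tested. CUTs without an XUT were also shorter (median 378 nt, against 521.5 nt for overlapping CUTs). Their median density in WT (mean over libraries) was 0.0121, against 0.0194 for overlapping CUTs and 0.00849 for XUTs without a CUT. The filter kept 330 of 356 overlapping CUTs, 467 of 641 XUTs without a CUT and 522 of 923 CUTs without an XUT. Low transcripts pass it through the groups where they are higher. The part of length, level and filter in the counts was not tested. In upf1 vs WT, 16 of 117 SUTs and 0 of 37 snoRNAs were higher (limma), and 0 snoRNAs reached an unadjusted p under 0.05. The deposited scaling holds the snoRNAs near 0, so their counts are no separate result.

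The share called differed with XUT length and position, by counts whose differences were not tested. Of the tested XUTs longer than the median of 811.5 nt, 144 of 158 were higher in upf1 (median log2 change 1.12), against 94 of 143 of the shorter ones (median 0.58). Longer transcripts hold more reads at a given density, and the part of this in the counts was not tested. By position, 100 of 113 XUTs starting inside an opposite mRNA were higher, 112 of 148 beside a divergent mRNA, 24 of 38 downstream of an mRNA on the same strand, and both of the 2 with no mRNA upstream.

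**Figure D2:**
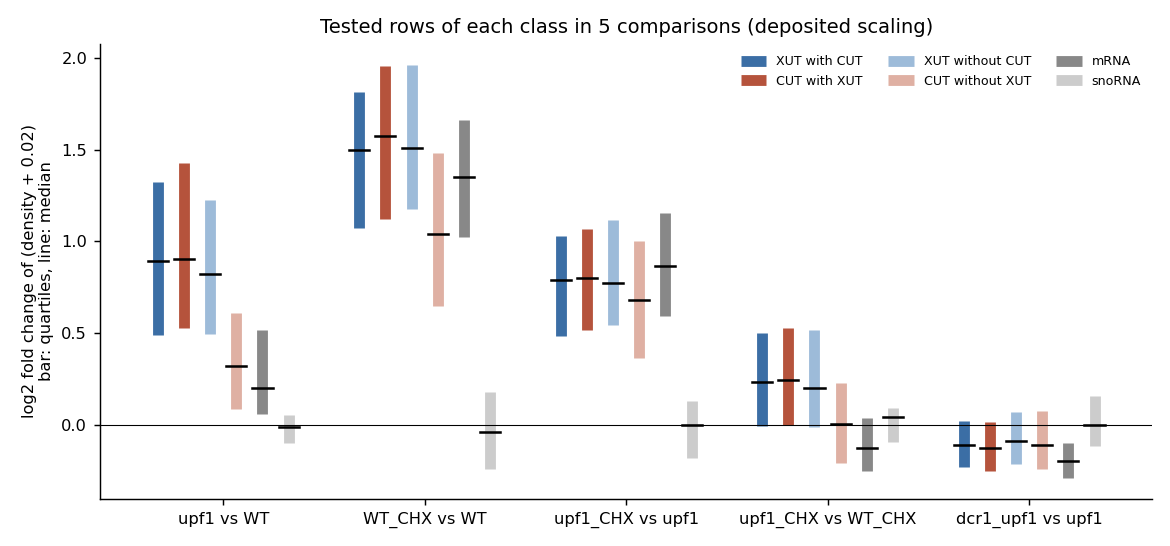
Log2 fold change of (density + 0.02) for tested features of 6 classes in 5 comparisons, with a bar from the lower to the upper quartile and a black line at the median, under the deposited scaling. CUTs that overlap an XUT sit with those XUTs, with which they share most reads, in upf1 vs WT (medians 0.90 and 0.89). CUTs without an XUT sit lower (0.32). With CHX the mRNA median itself is at 1.35.

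On the log2(density + 0.02) scale the largest change was at XUT0541 with CUT0698 (chromosome 4, 164323 to 166197, minus strand, in the coordinates of the deposited table, whose genome build is not named). The locus starts 214 nt from the divergent CEP3, a kinetochore gene, and covers the whole of the uncharacterised NCAS_0D00880 on the other strand. (Roles of named genes are those known in Saccharomyces cerevisiae.) XUT0541 had densities of 0.0456, 0.0418, 0.0321 and 0.0404 in the WT libraries and of 0.473, 0.492, 0.667 and 0.612 in the upf1 libraries. All upf1 libraries were above all WT libraries, and the group means differed 14-fold (log2 change 3.27 ± 0.12 SE, limma adjusted p = 1.51e-12). The rule that chose the transcripts to name asked for such a separation, so it is no separate result. Ratios of plain means were larger at loci near 0 in WT, such as 29.4 for XUT0972 and 30.8 for XUT0921, described further on. CUT0698, nested in it, changed by 3.30 ± 0.13. The 672 nt of XUT0541 outside CUT0698 went from 0.0212 to 0.355, so core and flank were both higher in upf1.

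XUT0849 with CUT1114 (chromosome 8, 22423 to 23328, minus strand) starts inside DLD3, a gene of the D-lactate dehydrogenase family, and runs antisense to it. XUT0849 stood at 0.0326, 0.0535, 0.0517 and 0.0451 in WT and at 0.530, 0.540, 0.623 and 0.591 in upf1. Its log2 change was 3.18 ± 0.12 (adjusted p = 1.51e-12), and that of CUT1114 was 3.21 ± 0.12. DLD3 itself had a mean of 0.435 ± 0.103 in WT and 0.688 ± 0.0914 in upf1 (log2 change 0.66, adjusted p = 0.00121).

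XUT0067 with CUT0083 (chromosome 1, 745245 to 746640, minus strand) reached higher levels than the preceding loci and lies 654 nt from the divergent MAC1, a copper-sensing transcription factor. XUT0067 had densities of 0.329, 0.297, 0.276 and 0.335 in WT and of 1.75, 1.74, 2.24 and 2.04 in upf1, a 6.28-fold difference of means (log2 change 2.57 ± 0.11, adjusted p = 5.32e-12). No mRNA lies opposite it.

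The other loci with a large rise that are named here lay in different settings. XUT0346 with CUT0459 crosses CIT3, a mitochondrial citrate synthase, and overlaps LOC1; the XUT changed by 2.57 ± 0.12 and the CUT by 2.68 ± 0.14. XUT0210 with CUT0272 starts inside RAD30, the translesion DNA polymerase eta, and the 2 transcripts changed by 2.47 ± 0.12 and 2.77 ± 0.13. XUT0874 with CUT1141, divergent from GUP2, changed by 2.67 ± 0.11 and 2.61 ± 0.11. XUT0099 with CUT0125 and XUT0621 with CUT0822 have no opposite mRNA, and their 4 values ran from 2.54 for XUT0621 to 2.73 for CUT0822. Libraries did not overlap between upf1 and WT for any of these 10 transcripts. The naming rule asked for this at each of these loci, where partners mostly count the same reads, so it is no separate result. CUT0126 (−0.04, limma adjusted p = 0.90) lies opposite the locus of XUT0099. Opposite the locus of XUT0621 lie XUT0622 (not tested) and CUT0823 (0.89, limma adjusted p = 0.00326).

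Loci with several annotated pieces were mostly higher across the whole span. At the locus opposite SUL2, a sulfate permease (chromosome 2, 937061 to 939900, minus strand), XUT0349 spans 3 CUTs. XUT0349 went from 0.00975, 0.00770, 0.0143 and 0.0158 in WT to 0.0898, 0.104, 0.120 and 0.135 in upf1. Its log2 change was 2.05 ± 0.14, and the CUTs, from the 5′ to the 3′ end, gave 1.94 (CUT0472), 2.65 (CUT0471) and 2.06 (CUT0470). Downstream of UGA4, a GABA permease, XUT0552 changed by 1.29 ± 0.13 and its 3 CUTs by 1.59 to 1.71. On the opposite strand there lie XUT0551, which changed by 2.74 ± 0.12, and CUT0709, which changed by 0.63 ± 0.13. XUT0018, which crosses LTO1, ATX1 and DSL1, changed by 0.78 ± 0.13, with CUT0019 at 0.94 and CUT0020 at 0.83. CUT0021, nearest its 3′ end, changed by 0.50 ± 0.21 and did not pass (adjusted p = 0.0694, or 0.0173 with the replicate number as a block).

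Near a chromosome end, CUT1198 spans 3 XUTs (chromosome 9, 4819 to 6729, plus strand), the 1 locus with that layout. CUT1198 held 5, 4, 5 and 9 reads in the WT libraries and 200, 136, 111 and 109 in the upf1 libraries. The mean density went from 0.00352 to 0.0723 (log2 change 1.95 ± 0.16, adjusted p = 1.33e-08), and XUT0919, XUT0920 and XUT0921 changed by 2.37, 2.05 and 2.09. XUT0972 with CUT0324 and CUT0325, near the end of chromosome 10 (2755 to 4370, plus strand), held 9, 8, 1 and 7 XUT reads in WT and 274, 321, 160 and 119 in upf1. XUT0972 changed by 2.59 ± 0.13. How reads that match several places were counted is not known from the labels, which limits values near chromosome ends.

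The CUT and XUT of one locus, which mostly count the same reads, changed by nearly the same amount. Over 252 loci with 1 tested CUT and 1 tested XUT, the XUT minus CUT difference in log2 change had a median of −0.02 in upf1 vs WT and stayed within 0.5 in 244. The corresponding numbers were 246 of 252 in WT_CHX vs WT and 251 of 252 in dcr1_upf1 vs upf1. The CUT had the larger log2 change in 171 of 252 loci in upf1 vs WT. In the 72 nested pairs with a separable flank, the ratio of upf1 to WT was larger outside the CUT in 13. That ratio carries the same pseudocount, which pulls low densities towards no change, and the flank is the lower of the 2 at most pairs.

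**Figure D3:**
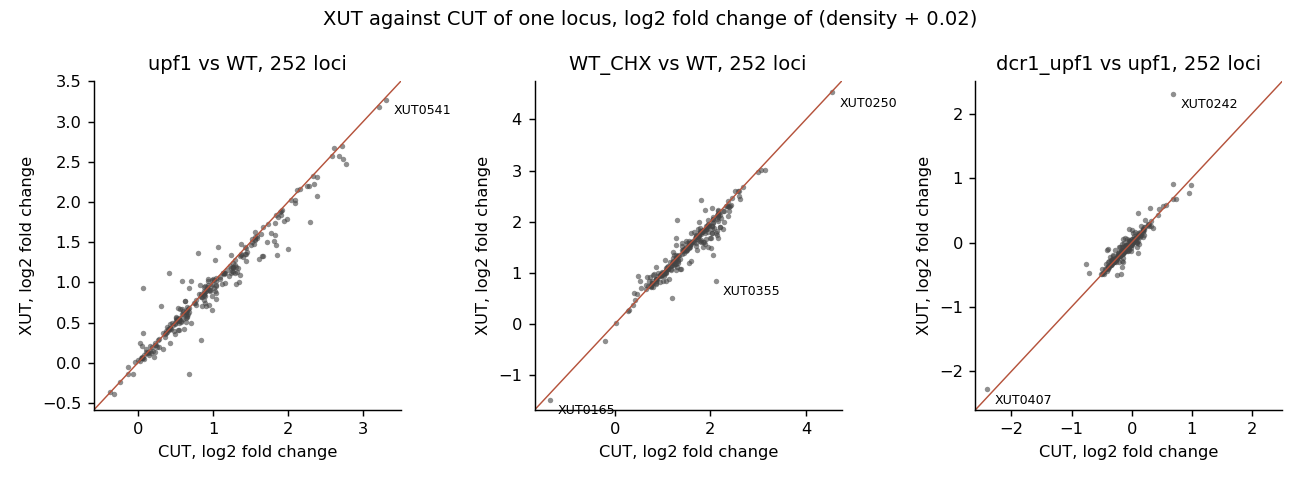
Log2 fold change of the XUT (vertical) against that of the CUT (horizontal) at 252 loci with 1 of each, in 3 comparisons; the line marks equal change. Most loci lie near the line, and the farthest from it are XUT0355 after CHX (0.85 against 2.11 for its CUT) and XUT0242 in dcr1_upf1 (2.31 against 0.69).

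Cycloheximide raised nearly all overlapping transcripts in WT, as it did nearly all features under the deposited scaling. In WT_CHX against WT, 609 of 631 were higher and 2 lower (limma, adjusted p under 0.05), against 94.1% higher and 0.146% lower of all tested features. By WT level, 294 of the 309 with a WT mean of at least 0.02 were higher and 2 lower, and 315 of the 322 below it were higher. The median was 1.54 for the overlapping transcripts, 1.35 for mRNAs and 1.04 for CUTs without an XUT. Scaled by mRNA ratios, 355 of 614 passed upwards and 14 downwards (median 0.60), against 34.7% and 20.8% of all features. Both WT_CHX libraries lay above all WT libraries for 607 of 631 and below them for 3, against 95.1% and 0.226% of all features.

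The largest response to CHX was at XUT0250 with CUT0315 (chromosome 1, 2908991 to 2909606, plus strand), 292 nt downstream of VMA13, a subunit of the vacuolar proton pump. XUT0250 had densities of 0.197, 0.221, 0.241 and 0.228 in WT and of 5.43 and 5.70 in WT_CHX, a 25.1-fold difference of means (log2 change 4.53 ± 0.16, adjusted p = 1.88e-12; 3.20 under mRNA-ratio scaling). In upf1 it stood at 0.140, 0.141, 0.176 and 0.227, and in upf1_CHX at 5.47 and 4.79. The CHX values of both strains lie far above all untreated values, while upf1 and WT overlap. XUT0250 and CUT0315 were the pair called lower in upf1 (−0.36 ± 0.13, adjusted p = 0.0332, and −0.37 ± 0.13, adjusted p = 0.0321). Without any of WT replicates 2, 3 and 4 or upf1 replicates 1 and 2 neither passed (adjusted p from 0.0576 to 0.108). In replicates 3 and 4 alone the changes were −0.21 and −0.21.

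XUT0715 with CUT0951, which starts 371 nt from the divergent ASC1, a ribosome-associated signalling protein gene, and overlaps the opposite SPC24, a kinetochore gene, behaved likewise. XUT0715 had densities of 0.0245, 0.0168, 0.0124 and 0.0168 in WT, of 0.0134, 0.0311, 0.0182 and 0.0222 in upf1, and of 0.295 and 0.267 in WT_CHX. CHX changed it by 3.01 ± 0.19 in WT and by 2.54 ± 0.19 in upf1, while upf1 vs WT gave 0.12 (adjusted p = 0.58). Under mRNA-ratio scaling the changes with CHX were 1.96 in WT and 1.73 in upf1. The opposite SPC24 mRNA was higher in upf1 than in WT (log2 change 2.33, adjusted p = 3.64e-09).

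XUT0618 with CUT0821, downstream of PRE9, a proteasome subunit gene, likewise stood at 0.364, 0.371, 0.348 and 0.409 in WT and at 0.383, 0.341, 0.370 and 0.403 in upf1. In WT_CHX it reached 1.48 and 1.49 (log2 change 1.94 ± 0.12, or 0.61 under mRNA-ratio scaling). The upf1 and WT values overlap fully, with a log2 difference of 0.00 ± 0.10.

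XUT0042 with CUT0045 covers ERV1, a sulfhydryl oxidase of the mitochondrial intermembrane space, and reaches MSP1, a mitochondrial quality-control ATPase. XUT0042 had densities of 0.0310, 0.0226, 0.0247 and 0.0362 in WT, of 0.121, 0.124, 0.188 and 0.164 in upf1, of 0.383 and 0.361 in WT_CHX and of 0.392 and 0.357 in upf1_CHX. With CHX the strains overlapped, without it they did not. The change with CHX in WT was 3.02 ± 0.17, or 1.90 under mRNA-ratio scaling.

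The overlapping pair most abundant in WT, XUT0958 with CUT1261 (chromosome 9, 491237 to 493143, plus strand), moved with the scaling. XUT0958 stood at 2.81, 2.22, 2.63 and 3.54 in WT and at 5.22 and 5.43 in WT_CHX, a log2 change of 0.94 ± 0.17 (adjusted p = 5.2e-05). Under mRNA-ratio scaling the change was −0.42, the opposite sign. In upf1 it stood at 2.46, 2.55, 3.50 and 3.15, which overlaps WT.

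XUT0165 with CUT0214 (chromosome 1, 1796696 to 1797573, plus strand), between RTT101 and the opposite CHM7, was the pair called lower with CHX in both strains. XUT0165 had densities of 1.24, 1.15, 0.375 and 0.511 in WT, of 1.06, 1.12, 0.670 and 0.488 in upf1, of 0.244 and 0.253 in WT_CHX and of 0.178 and 0.212 in upf1_CHX. Replicates 1 and 2 were the higher ones in both untreated groups, and all CHX libraries lay below all untreated ones. The log2 change was −1.47 ± 0.48 in WT (adjusted p = 0.0127) and −1.92 ± 0.48 in upf1 (adjusted p = 0.00361), and −2.18 and −2.38 in replicates 1 and 2 alone. In WT the call was lost without either WT_CHX library (adjusted p = 0.0584 and 0.0531), as was that of CUT0214 (adjusted p = 0.0658 and 0.0676). CUT0214 is 869 nt long and XUT0165 407 nt, yet CUT0214 held only 479 reads against 478 in WT library 1, so both annotations describe the same short stretch of signal.

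At XUT0355 with CUT0487 (chromosome 2, 1071846 to 1072472, minus strand) the 2 annotations parted. CUT0487 stood at 0.136, 0.111, 0.0782 and 0.0555 in WT and at 0.425 and 0.495 in WT_CHX (log2 change 2.11 ± 0.31, adjusted p = 2.16e-05; 0.87 and adjusted p = 0.0672 under mRNA-ratio scaling). XUT0355 stood at 1.47, 1.10, 0.576 and 0.422 in WT and at 1.36 and 1.52 in WT_CHX, which overlap (0.85 ± 0.77, adjusted p = 0.305). In replicates 1 and 2 alone its change was 0.18 (adjusted p = 0.149), and with the replicate block it was 0.0052. Most XUT0355 reads lay in the 302 nt outside the CUT, with mean densities of 1.75 in WT and 2.5 in WT_CHX, against 0.0953 and 0.460 inside. The outside density was over 10 times that of the CUT in every WT library, the reverse of the usual layout. Upf1 library 3 held the lowest XUT0355 density, 0.198, beside 1.43 and 1.54 in libraries 1 and 2.

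**Figure D4:**
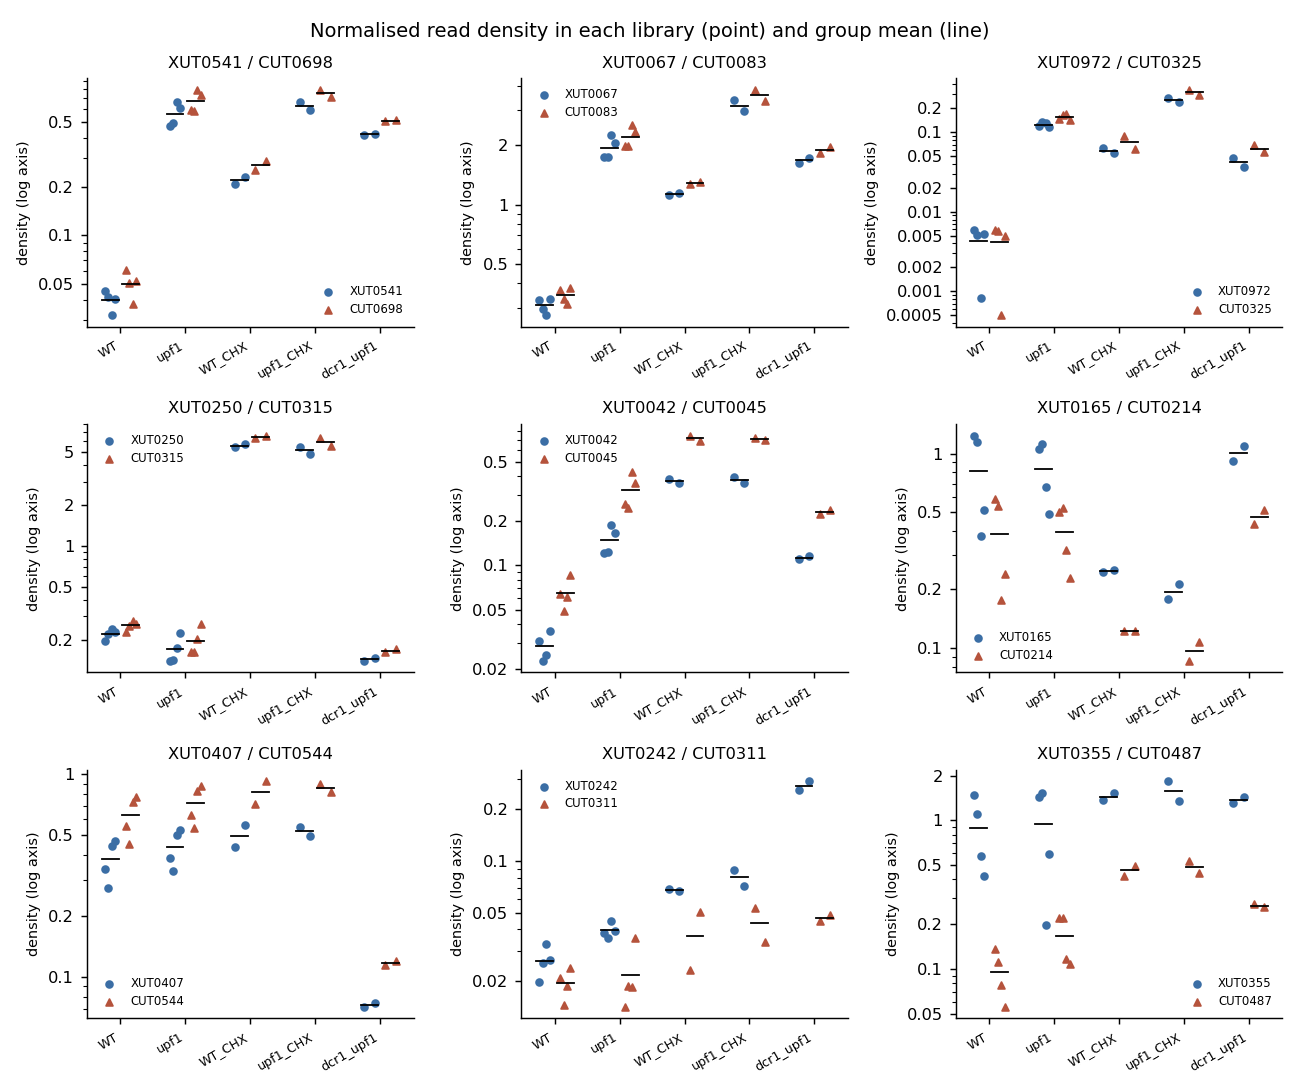
Normalised read density on a logarithmic axis in each of 14 libraries for 9 loci, with circles for the XUT, triangles for the CUT and black lines at group means; the value of 0 for CUT0325 in WT is drawn as the lowest triangle of its panel. XUT0541, XUT0067 and XUT0972 are higher in upf1 than in WT, XUT0250 is higher in the CHX libraries, XUT0165 is lower in them, and XUT0407 and XUT0242 differ in dcr1_upf1.

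In the strain without UPF1, CHX added less. In upf1_CHX against upf1, 498 of 631 were higher and 2 lower (limma), against 84.4% higher and 0.239% lower of all tested features, with a median of 0.79 against 0.83 for all features. Scaled by mRNA ratios, 69 of 614 (11.2%) passed upwards and 79 (12.9%) downwards (median −0.02), against 18.0% and 25.8% of all features (median −0.05). Of the 609 higher with CHX in WT and the 498 in upf1, 495 were shared, 81.3% of the first and 99.4% of the second. The comparisons share no library. With 96.5% of the 631 higher in WT and 78.9% in upf1, most calls would be shared in any case. Both upf1_CHX libraries lay above all upf1 libraries for 539 and below them for 2, against 86.8% and 0.359% of all features.

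The difference between the strains' responses was tested as an interaction. It was negative, a smaller CHX response in upf1 than in WT, for 249 of 631 (limma), against 21.4% of all tested features. It was positive for 0 of 631, against 0.0133% of all features, and 0 of 631 were positive at an unadjusted p under 0.05 or with voom weights. The median was −0.68, and under mRNA-ratio scaling 192 of 614 were negative with a median of −0.55, against 13.7% and −0.05 for all features. The count fell to 125 without upf1_CHX replicate 2 and to 149 without WT_CHX replicate 2. In the fit of all libraries, 153 of the 309 with a WT mean of at least 0.02 were negative, and 96 of the 322 below it. The latter pass the filter through the groups where they are higher, among them CUT0471 (WT mean 0.00885). All tested transcripts were negative at 100 loci. At the locus opposite SUL2, CUT0471 gave −2.09 ± 0.23 (adjusted p = 2.02e-05) and XUT0349 −1.49 ± 0.25. CUT0045 gave −2.0 ± 0.27 and XUT0042 −1.78 ± 0.24. CUT0698 and XUT0541 gave −1.90 and −1.83, and CUT0125 and XUT0099 −1.86 and −1.85. XUT0099 shows the pattern in its values: 0.0493, 0.0408, 0.0404 and 0.0467 in WT, 0.319, 0.350, 0.450 and 0.492 in upf1, 0.447 and 0.523 in WT_CHX, and 0.889 and 0.885 in upf1_CHX. The WT_CHX and upf1 libraries overlapped there, and the upf1_CHX libraries were the highest.

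With CHX present, loss of UPF1 still raised a small set. In upf1_CHX against WT_CHX, 55 of 631 were higher and 0 lower (limma), against 4.27% higher and 0.984% lower of all tested features. With the replicate number as a block 115 were higher, and with 1 library left out the count was 25 to 38, lowest without upf1_CHX replicate 1. At an unadjusted p under 0.05, 180 were higher and 2 lower, and voom weights called 78 higher and 0 lower. Both upf1_CHX libraries lay above both WT_CHX libraries for 333 and below for 68, against 23.0% and 41.4% of all features. The median was 0.24, against −0.09 for all features. In the fit of all libraries, 33 of the 309 with a WT mean of at least 0.02 were higher, and 22 of the 322 below it. All 55 were also among the 501 higher in upf1 without CHX, which are 79.4% of the 631, so most would be shared in any case. The 2 comparisons share no library.

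The loci still higher with CHX include several with a large rise without it. XUT0541 stood at 0.208 and 0.229 in WT_CHX and at 0.661 and 0.594 in upf1_CHX (log2 difference 1.44 ± 0.17, adjusted p = 6.99e-05). XUT0849 differed by 1.47 ± 0.17, XUT0067 by 1.47 ± 0.15 and XUT0972 by 1.79 ± 0.18. At the chromosome 9 end CUT1198 stood at 0.0108 and 0.0141 in WT_CHX and at 0.0772 and 0.0632 in upf1_CHX (1.47 ± 0.22, adjusted p = 0.00055). XUT0919 there differed by 1.63 ± 0.32 (adjusted p = 0.00586), and did not pass without WT_CHX replicate 2 (adjusted p = 0.101) or upf1_CHX replicate 1 (adjusted p = 0.105). CUT1198 had a mean of 0.0702 in upf1_CHX and 0.0723 in upf1, and XUT0921 of 0.0753 and 0.0767.

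**Figure D5:**
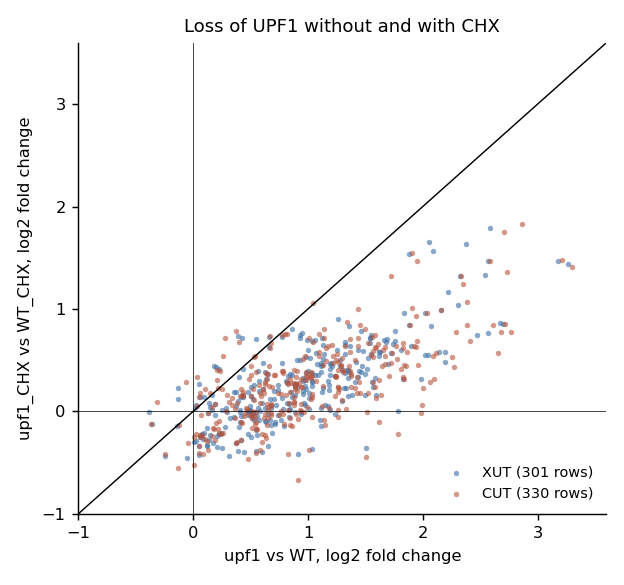
Log2 fold change of each tested overlapping XUT (301) and CUT (330) between upf1_CHX and WT_CHX (vertical) against that between upf1 and WT (horizontal), with the line of equal change. The 2 comparisons share no library, and 595 of 631 transcripts had the larger value without CHX (medians 0.90 and 0.24).

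Removing DCR1 from the upf1 strain changed few of the overlapping transcripts. In dcr1_upf1 against upf1, 2 of 631 were higher and 5 lower (limma), against 0.333% and 0.173% of all tested features. With the replicate number as a block 7 were higher and 5 lower. The median was −0.12, against −0.17 for all features. Both dcr1_upf1 libraries lay above all upf1 libraries for 29 and below them for 91, against 2.73% and 24.9% of all features. The 7 called lay at 4 loci.

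XUT0407 with CUT0544 (chromosome 2, 1658396 to 1659000, minus strand), 485 nt downstream of NCAS_0B08630, fell most. CUT0544 had densities of 0.630, 0.542, 0.830 and 0.876 in upf1 and of 0.115 and 0.120 in dcr1_upf1, a 6.12-fold difference of means (log2 change −2.40 ± 0.21, adjusted p = 8.67e-06). In WT it stood at 0.559, 0.454, 0.730 and 0.774 and with CHX at 0.716 and 0.924, so all 12 libraries with an intact DCR1 locus by their labels lay above both dcr1_upf1 libraries. XUT0407 changed by −2.28 ± 0.21. Its 237 nt outside the CUT held 0 reads in all WT libraries and at most 4 reads in any library, so XUT and CUT again describe one stretch. No annotated feature lies opposite this locus. It was not called in upf1 vs WT (0.19 ± 0.17 for CUT0544, adjusted p = 0.43) or in WT_CHX vs WT (0.39 ± 0.21, adjusted p = 0.091).

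The chromosome 10 end locus was the other one that fell. XUT0972 went from 0.122, 0.133, 0.129 and 0.117 in upf1 to 0.0474 and 0.0365 in dcr1_upf1 (log2 change −1.23 ± 0.16, adjusted p = 0.000173). CUT0324 changed by −1.29 ± 0.17 and CUT0325 by −1.09 ± 0.17 (adjusted p = 0.00194, and 0.131 without dcr1_upf1 replicate 2). The overlapping opposite gene NCAS_0J00110 moved the same way, from 0.129 ± 0.0181 in upf1 (n = 4) to 0.0351 ± 0.00836 in dcr1_upf1 (n = 2; log2 change −1.44, adjusted p = 0.000654). In WT both strands were near 0.

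XUT0242 (chromosome 1, 2845688 to 2846908, plus strand) rose in dcr1_upf1 by more than its CUT0311. XUT0242 had densities of 0.0382, 0.0356, 0.0449 and 0.0390 in upf1 and of 0.258 and 0.292 in dcr1_upf1 (6.97-fold; log2 change 2.31 ± 0.16, adjusted p = 1.14e-07). CUT0311 had 0.0141, 0.0189, 0.0184 and 0.0358 in upf1 and 0.0447 and 0.0482 in dcr1_upf1 (0.69 ± 0.23, adjusted p = 0.395; 0.87 and adjusted p = 0.0253 in replicates 1 and 2 alone). The gain lay downstream of the CUT: the 866 nt outside it went from a mean of 0.0467 in upf1 to 0.369 in dcr1_upf1. An annotated XUT, XUT0243, lies on the opposite strand there, a feature named here after its values were seen. It was under the filter, with means of 0.0110 ± 0.00536 in upf1 (n = 4) and 0.0230 ± 0.00286 in dcr1_upf1 (n = 2).

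CUT1189 with XUT0913, antisense within NCAS_0H03510, gave the other call upwards. CUT1189 went from 0.225, 0.191, 0.238 and 0.255 in upf1 to 0.372 and 0.410 in dcr1_upf1 (0.74 ± 0.16, adjusted p = 0.0468), and the call was lost without any of upf1 replicates 1 and 2 or either dcr1_upf1 library (adjusted p from 0.0817 to 0.516). XUT0913 changed by 0.68 ± 0.16 and did not pass (adjusted p = 0.0854, or 0.0146 with the block). The opposite NCAS_0H03510 mRNA changed by −0.07 (adjusted p = 0.80).

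The genes opposite the loci were also higher in upf1 more often than other mRNAs, by count. Of 236 tested mRNAs opposite a locus, 132 were higher (55.9%, median log2 change 0.41), against 1838 of 5210 other mRNAs (35.3%, median 0.20). The difference was not tested, and overlapping strands are counted separately only as far as the stranded library preparation separates them. SUL2 rose by 1.56 (adjusted p = 1.01e-08), from 0.0235 ± 0.00557 in WT to 0.108 ± 0.00726 in upf1 (n = 4 each), under an XUT that rose by 2.05. RAD30 changed by 0.95 and CIT3 by 0.69, while EAR1, MSP1 and DSL1 did not pass (0.14, 0.17 and 0.21; adjusted p = 0.297, 0.335 and 0.179). With CHX in WT, 229 of 236 opposite mRNAs were higher, close to 5115 of 5210 others.

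Genes of the decay machinery that acts on these RNAs were listed for comparison, 32 in all and all tested. In upf1 against WT 6 were higher and 1, NAM7, was lower (limma), with a median of 0.13, a smaller share than the 36.2% of mRNAs that were higher. Those higher were the NMD factors UPF3 (0.78), EBS1 (0.84) and NMD4 (1.59), the decapping subunit DCP1 (0.65), the decapping activator LSM1 (0.25) and the exosome subunit RRP40 (0.28). XRN1, the exonuclease that names the XUTs, stood at 1.00 in WT and 1.03 in upf1 (log2 change 0.03, adjusted p = 0.87), and the nuclear exosome nuclease RRP6 changed by −0.07 (adjusted p = 0.84). With CHX in WT all 32 were higher under the deposited scaling, with a median of 1.41, close to the mRNA median of 1.35.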

How the data were processed

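Total RNA was sequenced from 14 libraries in 5 groups. Values deposited by the authors are read densities (a coverage signal): the values behave as reads per annotated feature divided by a library factor and by feature length, since each value times length was a whole multiple of 1 step per library in 100% of values (within 0.01 reads). The submitters' processing notes name DESeq2, featureCounts 2.0.0, HISAT2 2.2.0 and Trim Galore. The table had 8602 lines, of which 259 repeats were left out. Depth was 7895089 to 22437334 reads, and low transcripts are the least precise.

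Tests used limma 3.58.1 in R 4.3.3 on log2(density + 0.02), for the 7518 features with a mean density of at least 0.02, in 1 fit over all 5 groups, with Benjamini-Hochberg adjustment and a threshold of 0.05. The script was tested on simulated data. Same-numbered WT and upf1 libraries deviated together (correlations 0.365, 0.432, 0.209 and 0.354), which passed the limit set for pairing by number, but other numbers of the same set correlated as much (0.400 and 0.396 among replicates 1 and 2, 0.264 and 0.489 among 3 and 4), so the block by number also stands for these 2 sets. Named transcripts were those with the largest changes per comparison, those most abundant or least alike within a locus, and loci of 4 transcripts. The largest changes were taken among called transcripts whose libraries did not overlap between the compared groups (for the interaction, among called ones). The text gives part of what that rule takes. The members and lists were chosen with earlier results of these data known. Alternatives were another pseudocount, filter, scaling or sample set, a replicate block, and voom weights on recovered reads, the last chosen after seeing the data.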

Additional observations from a re-analysis of the deposited data

Results flagged for a closer look

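Dixon's test, which flags about 1 in 20 groups by chance, was run on the 55 named transcripts in WT and in upf1. In 5 cases a single-library value stood apart from the rest of its group, about as many as that rate gives. In WT library 3, XUT0972 had the lowest density, 0.000828, and CUT0325 of the same locus had 0. In upf1 library 2, CUT0021 was lowest at 0.0115 and XUT0921 lowest at 0.0512. In upf1 library 3, XUT0210 was highest at 0.198.

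The effect of CHX differed between upf1 and WT by the interaction test (limma, adjusted p under 0.05) at loci described above, and the values of 4 of them follow. The difference, upf1 minus WT on the log2 scale, was −1.78 for XUT0042 and −2.0 for CUT0045. It was −1.85 for XUT0099 and −1.86 for CUT0125. At the locus opposite SUL2 it was −1.77 for CUT0470, −1.49 for XUT0349, −2.09 for CUT0471 and −1.31 for CUT0472. It was −1.83 for XUT0541 and −1.90 for CUT0698. Other described loci also had a negative interaction, among them XUT0849 (−1.71), XUT0210 (−1.72), XUT0346 (−1.80) and XUT0874 (−1.80).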

How the results depend on the processing

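Counts below are of overlapping CUTs and XUTs. For upf1 vs WT, 161 were higher when a mean density of at least 0.1 was asked (187 tested), and 465 to 488 with 1 library left out. The 2 lower became 0 with a pseudocount of 0.1, 8 under mRNA-ratio scaling, 0 with the compared groups alone, 6 in replicates 1 and 2, 0 in replicates 3 and 4, and 0 to 3 with 1 library left out. For WT_CHX vs WT, 180 were higher at the density of 0.1, 355 under mRNA-ratio scaling and 583 to 612 with 1 library left out; lower were 14 under mRNA-ratio scaling, 0 with the compared groups alone, 1 with voom and 0 to 2 with 1 library left out. For upf1_CHX vs upf1, 161 were higher at the density of 0.1, 69 under mRNA-ratio scaling (79 lower) and 377 to 509 with 1 library left out (2 to 3 lower). For upf1_CHX vs WT_CHX, 139 were higher with a pseudocount of 0.1, 36 at the density of 0.1, 111 under mRNA-ratio scaling, 155 with the compared groups alone (7 lower), 165 in replicates 1 and 2 (4 lower) and 25 to 38 with 1 library left out. The interaction was negative for 161 with a pseudocount of 0.1, 136 at the density of 0.1 and 125 to 260 with 1 library left out, and positive for 1 in replicates 1 and 2. For dcr1_upf1 vs upf1, 1 was higher with a pseudocount of 0.005, at the density of 0.1 and with the compared groups alone, 8 under mRNA-ratio scaling, 9 in replicates 1 and 2, 7 with voom and 1 to 4 with 1 library left out (4 to 5 lower).

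XUT0958 and CUT1261 changed sign in WT_CHX vs WT under mRNA-ratio scaling (−0.42 and −0.42). Of 89 calls for named transcripts, 79 kept direction and call under every alternative run. Most of these transcripts were named for large called changes in the same libraries, and partners mostly count the same reads. The 79 therefore give no rate for transcripts not named. The cause of the changes between alternatives was not tested.

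With the replicate block, 115 were higher in upf1_CHX vs WT_CHX and 7 in dcr1_upf1 vs upf1. It moved no other count by over 1.5 times (509 higher and 3 lower in upf1 vs WT, 314 negative interactions). The pair of planned edgeR alternatives was not run; voom on the recovered reads was run instead. Depth limits the lowest transcripts: the median overlapping XUT held 10 reads in WT library 3.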
